A study of Mus musculus with 15 samples.

Results

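Translation initiation and elongation factors were followed in bone marrow-derived macrophages (BMDMs) of the mouse as the 63 genes, of 25814 in the deposited tables, whose symbols begin with Eif and a digit up to 6 or with Eef1 or Eef2. The Eif2ak kinases and rows named as pseudogenes were left out of the members, and the choice used no measured value. The cells were grown from bone marrow of adult wild-type C57BL/6 mice for 6 days in DMEM with 10% fetal bovine serum, 50 µM beta-mercaptoethanol and 20% medium conditioned by L929 cells, a fibroblast line that secretes macrophage colony-stimulating factor. RNA was sequenced from 5 control libraries, 5 libraries of cells given 10 µg/ml of the TLR3 agonist poly(I:C), which mimics the double-stranded RNA of viruses, and 5 of cells given 4 µM CL075, a small molecule that activates TLR7, each ligand being present for 6 h. Each ligand was used at 1 dose and 1 time, and the sources do not say what the control cells received in place of a ligand. The labels do not say whether the 5 libraries of a group came from separate animals, so p-values measure the spread between these libraries, which may be technical.

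Initiation factors bring the initiator tRNA, the small ribosomal subunit and the capped mRNA together, and elongation factors then carry aminoacyl-tRNAs to the ribosome and move it along the message. The cap is held by eIF4E, which binds the scaffold eIF4G and the RNA helicase eIF4A, and the 4E-BP proteins compete with eIF4G for eIF4E unless mTORC1 phosphorylates them. The initiator tRNA arrives on eIF2, which the exchange factor eIF2B recharges with GTP, and kinases that phosphorylate the alpha subunit of eIF2 block this exchange, among them PKR, which double-stranded RNA activates. In macrophages both switches are known to shape the output of cytokine mRNAs after Toll-like receptors are engaged.

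Each library held 21816291 to 32487565 counted reads. The members took 2.10% to 2.17% of the counts in the control libraries, 1.96% to 2.03% under CL075 and 1.12% to 1.16% under poly(I:C), so the groups did not overlap. These were 547268 to 666428, 436711 to 652053 and 298817 to 363938 reads a library. A large part of them came from 1 gene, Eef1a1, with 291942 to 354945, 192214 to 278893 and 157557 to 189274 reads in the same order. The 100 most abundant genes held 34.2% to 35.4% of the counts with poly(I:C), against 27.9% to 28.9% in the control libraries and 28.3% to 29.8% with CL075. Fold changes depend on the scale. TMM, which sets the bulk of genes equal between libraries, gave factors of 1.33 to 1.38 for the control libraries, 1.03 to 1.09 for CL075 and 0.683 to 0.721 for poly(I:C), and put the median of all 11804 genes tested at a log2 fold change of -0.08 for poly(I:C) and -0.02 for CL075. With library totals as the scale that median was -1.02 and -0.37, with upper-quartile factors -0.41 and -0.18, and with the gene Hprt as the scale -0.63 and -0.31. The share of higher genes among all genes called moved with it, from 45.5% on TMM to 32.3%, 25.5% and 16.8% with upper-quartile factors, Hprt and library totals for poly(I:C), from 45.1% to 33.5%, 25.6% and 22.4% for CL075, and from 48.9% to 39.7%, 35.0% and 22.4% for poly(I:C) against CL075. In what follows CPM (counts scaled by library size and TMM factor) serves to compare a gene between libraries, whereas TPM (counts per transcript length, scaled to the same total in every library) serves to compare genes by level within a group.

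Macrophage markers were abundant in all groups, with 11 of 12 listed genes found and summed to 33190 to 36160 CPM in the control libraries, 34590 to 39330 CPM with CL075 and 37850 to 40150 CPM with poly(I:C). Of the 11, 6 rose with poly(I:C), and with CL075 3 rose and 1 fell. Mertk fell 4.18-fold with CL075 and rose 2.25-fold with poly(I:C), and Fcgr1 rose 6.36-fold with poly(I:C) and 2.38-fold with CL075. Some markers of other cells moved with the ligands. The sum of 9 neutrophil markers was 20.7 to 83.04 CPM, 106.7 to 206.6 CPM and 37.1 to 150.1 CPM in the same order. Of 8 tested, 1 was called higher with poly(I:C) (S100a9) and 3 with CL075 (S100a8, Camp and Mmp8), while Ly6g reached no more than 0.152 CPM. The sum of 7 dendritic cell markers was 0.955 to 1.49 CPM, 1.26 to 1.85 CPM and 13.5 to 17.8 CPM. Of 4 tested, 3 were called higher with poly(I:C) (Clec9a 71.5-fold, Xcr1 52.8-fold and Ccr7 5.86-fold) and 1 with CL075 (Ccr7). Most of the sum with poly(I:C) was Clec9a at 12.1 ± 1.46 CPM (mean ± SD, n = 5). Flt3 and Zbtb46 reached no more than 0.315 and 0.441 CPM in any library. The 5 B cell markers, mostly Cd79b, which fell with both ligands, summed to 11.6 to 13.5 CPM, 2.83 to 3.85 CPM and 3.45 to 4.52 CPM. The 7 T and NK cell markers, mostly Cd4, summed to 47.3 to 58.1 CPM, 37.5 to 47.8 CPM and 61.5 to 75.7 CPM, with 1 of 3 tested called lower with each ligand. No mast cell, fibroblast or erythroid marker had enough reads to be tested, although haemoglobin genes summed to 28.5, 29.0 and 39.9 CPM in CL075 replicates 2 and 3 and poly(I:C) replicate 3, against at most 0.471 CPM in the other libraries. The part of these genes in the results was not tested, and in bulk RNA fewer cells of a type and less RNA per cell cannot be told apart.

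The calls of the members differed between the ligands. To be called, a gene had to change by more than 1.5-fold with an adjusted p under 0.05 in the edgeR quasi-likelihood test and to average more than 0.5 TPM in 1 or both groups, with p-values adjusted over all 11804 genes tested. Of the 63 members 59 had enough reads to be tested, the others being Eef1a2, Eif2s3y, Eif4e1b and Eif4ebp3. With CL075 19 of them rose, 4 fell and 36 were not called, which makes 39.0% called against 39.1% of all genes tested, and their median log2 fold change was 0.33 against -0.02 for all genes. The 19 higher calls are 32.2% of the members tested, where 17.6% of all genes were called higher, and the 4 lower calls are 6.78%, where 21.5% of all genes were called lower. With poly(I:C) 10 rose, 11 fell and 38 were not called, which makes 35.6% against 55.9% of all genes, with medians of -0.02 and -0.08. The higher calls are 16.9% of the members against 25.4% of all genes and the lower calls 18.6% against 30.5%. Against each other, the ligands differed in 23 members, 3 higher and 20 lower with poly(I:C), which is 39.0% against 46.5% of all genes called, and the 20 lower calls are 33.9% against 23.7% of all genes. The libraries of the groups did not overlap for 43 members with CL075, 41 with poly(I:C) and 41 between the ligands, where 65.2%, 75.9% and 66.2% of all genes tested did not overlap. With both ligands 7 members were called higher and 3 lower, against 1241 and 1767 of the 11804 genes tested. Not called with either ligand were 28 members, against 4038 genes. Another 3 members rose with CL075 and fell with poly(I:C), against 214 genes, and 0 did the reverse, against 227 genes. Both comparisons with control used the same 5 control libraries.

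The higher calls with poly(I:C) depended on the scale more than the others. All 11 members that fell with poly(I:C) were called lower with upper-quartile factors, with Hprt and with library totals too, and so were the 4 that fell with CL075 (Eef2k, Eef2kmt, Eif2d and Eif4ebp2) and the 20 called lower in the comparison of poly(I:C) with CL075. A test for a change beyond 1.5-fold (glmTreat), which is stricter, did not call Eef2kmt and Eif2d with CL075. More members were called lower with poly(I:C) on the other scales, 20 with upper-quartile factors, 29 with Hprt and 46 with library totals against 11 on TMM. Eef1akmt1, Eef1d, Eef2, Eif1b, Eif2b1, Eif3g, Eif3j2, Eif3l and Eif5, not called with poly(I:C) on TMM, were called lower on all 3 of them. Eif3f and Eif4b, not called with CL075 on TMM, were called lower with CL075 on all 3 as well. Statements below that a gene was not called or lay within 1.5-fold therefore hold for the TMM scale. Of the 19 that rose with CL075, 14 were called higher on every scale, whereas Eif1, Eif2s2, Eif3b, Eif3d and Eif4g1 missed the 1.5-fold threshold on at least 1 of them. Of the 10 that rose with poly(I:C), Eef1akmt4 and Eif1a were called higher on every scale. Eif4e3 was lost with library totals, and Eif2s1, Eif4e, Eif4g3 and Eif6 were lost with library totals and Hprt. Eif1, Eif4enif1 and Eif4g2 were lost on every other scale and turned to log2 fold changes of -0.24, -0.25 and -0.30 with library totals. Of the 3 members higher with poly(I:C) in the direct comparison, Eif4e3 was called on every scale, Eif4g3 was lost with library totals (0.55) and Eef1akmt4 was lost on the other 3 scales.

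**Figure D1:**
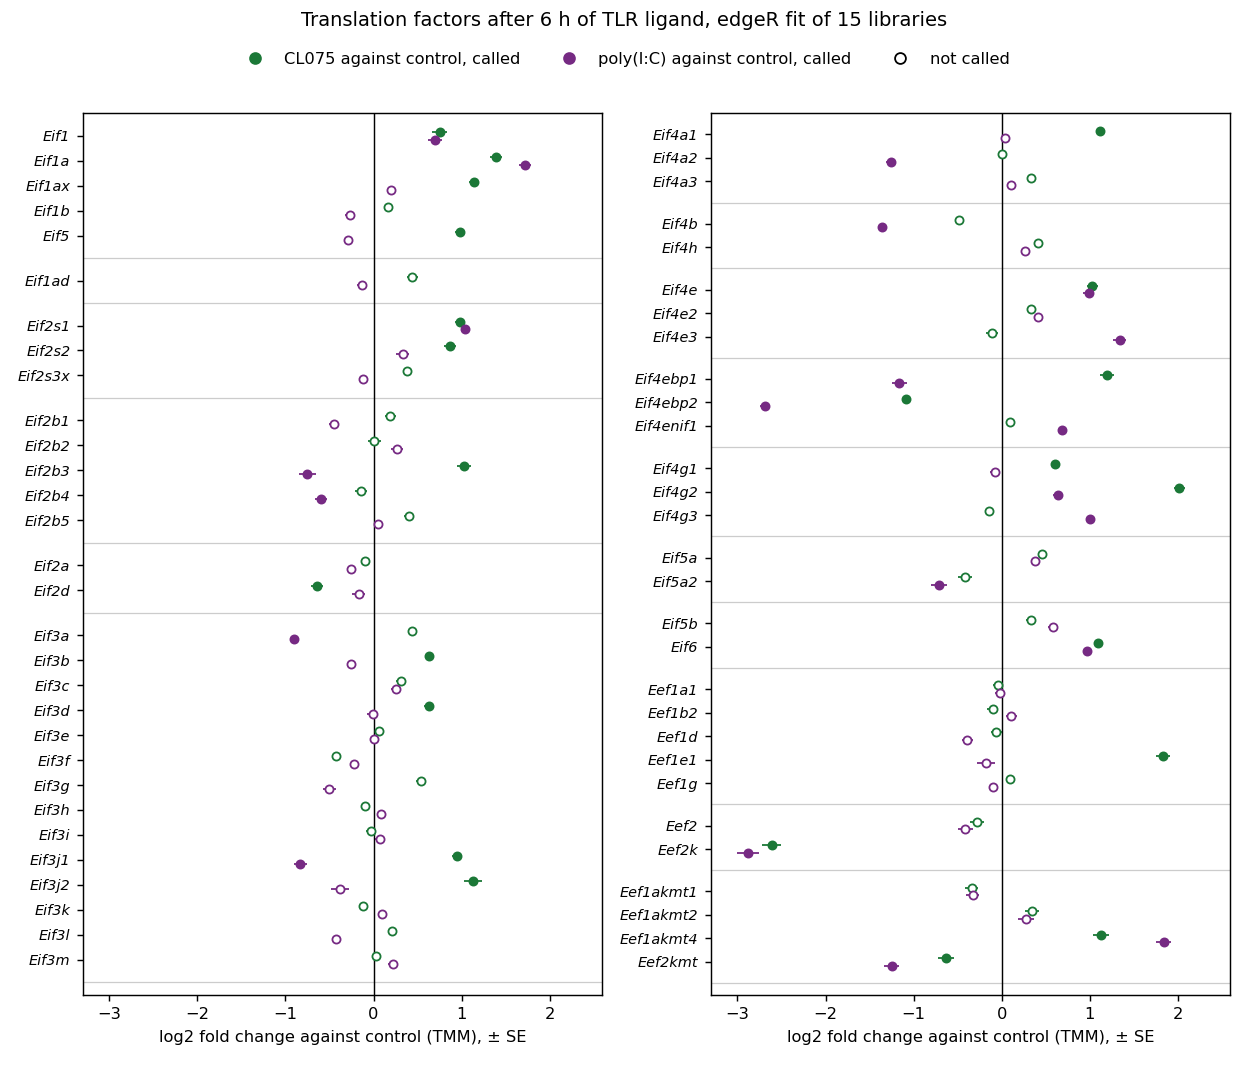
Log2 fold change against control of the 59 tested members on the TMM scale, grouped by role, with CL075 in green and poly(I:C) in purple; bars are the SE of the edgeR fit (5 libraries a group) and filled points are called. Most green points lie at or right of 0 (median 0.33), the purple points are centred near 0 (median -0.02), and Eef2k and Eif4ebp2 lie far left with both ligands.

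**Figure D2:**
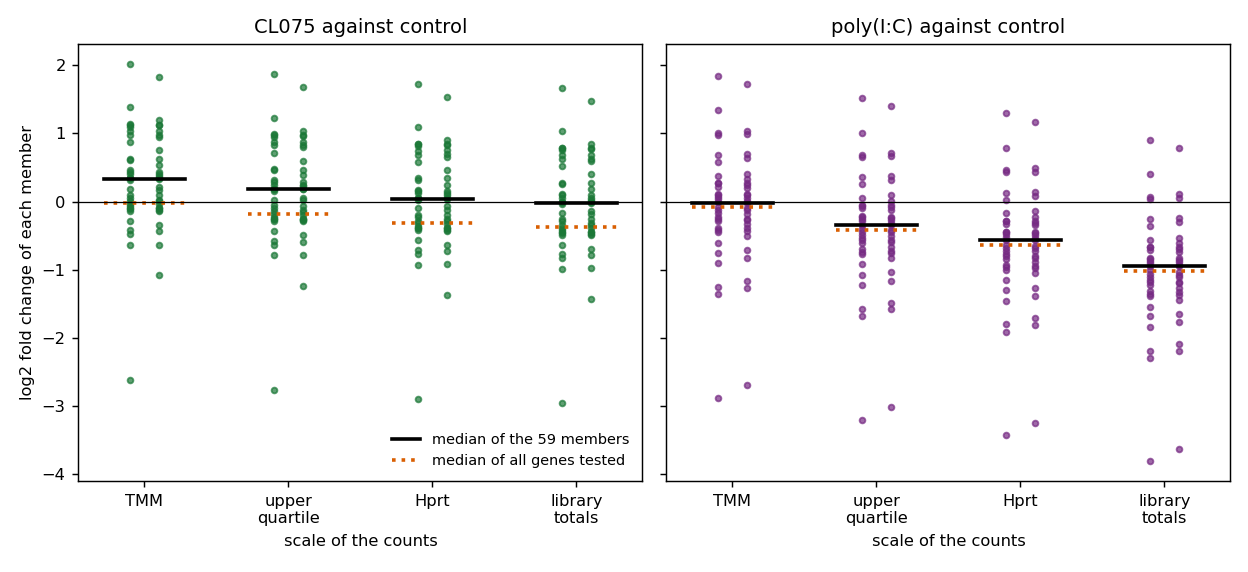
Log2 fold change of each of the 59 tested members on 4 scales, with the median of the members (black) and of all genes tested (dotted orange). With library totals the median of the members moved from 0.33 to -0.02 for CL075 and from -0.02 to -0.95 for poly(I:C), close to the shift of all genes.

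The promoters of the members were searched for words of factors that act on these genes or in these cells. In RefSeq promoters of GRCm38.p6, taken as 250 bases before to 50 after each annotated start, 48 of the 63 members were matched with 62 promoters. The E-box CACGTG, the binding word of MYC and related factors, which reads the same on both strands, stood in 13 of the 48 genes and in 24.2% of their promoters, against 7.15% of all 32851 promoters and 9.95% of the 11780 promoters of tested genes. A match is a description of letters and not a bound site, and annotated starts may not be the starts used in these cells. Of the 13 genes, 4 were called higher and 1 lower with CL075, and 2 higher and 3 lower with poly(I:C), where the shares of all genes tested were 17.6% and 21.5% for CL075 and 25.4% and 30.5% for poly(I:C). The stretches around the E-box are shown for genes that the results below turn on, in the order Eef2k (chr7:120842790-120842815, plus strand), Eif4e (chr3:138527194-138527219, plus strand), Eif4a1 (chr11:69672597-69672622, minus strand), Eif4g1 (chr16:20672663-20672688, plus strand), Eif3a (chr19:60790656-60790681, minus strand) and Eef1akmt4 (chr16:20611499-20611524, plus strand), 5′ to 3′ on the strand of the gene, with the E-box in capitals.
Eef2k: cggggacggcCACGTGagcccgggcg
Eif4e: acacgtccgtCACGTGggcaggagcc
Eif4a1: atcgcctccgCACGTGtaaaggtgct
Eif4g1: cagtgggtgtCACGTGatggggcgga
Eif3a: gcgagggaatCACGTGgttccttcct
Eef1akmt4: acggaagttcCACGTGtttgtgtgga
The 6 genes include a pair that rose with both ligands (Eif4e, Eef1akmt4), a pair that rose with CL075 (Eif4a1, Eif4g1), a gene that fell with both (Eef2k) and a gene that fell with poly(I:C) (Eif3a). Eif4e and Eif4g1 each hold a further E-box in the window. The genes shown were all called with 1 or both ligands. Of the 13 genes with an E-box, 8 were not called with CL075 and 8 were not called with poly(I:C). Eef2, Eif1b, Eif3f, Eif3k, Eif4h and Eif5a were called with neither ligand on the TMM scale.

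Of the other words, the core of the interferon-stimulated response element, a pair of GAAA words set 2 bases apart on either strand, stood in the promoters of Eif2s1, Eif2s3x and Eif3a (4.84% of the members' promoters against 3.44% of all). The core of the ATF4 element, TGATGNAA on either strand, stood in Eef2k and Eif2s3x (3.23% against 3.97%). An oligopyrimidine start, a C followed by 4 or more pyrimidines within 5 bases of the annotated start on the strand of the gene, stood in 11 of the 48 genes (19.4% of promoters against 18.3%). In promoters of tested genes these shares were 3.45%, 2.43% and 19.6%. As 18.3% of all promoters hold this last pattern, neither a match nor its absence tells whether an mRNA is under mTORC1.

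The mRNAs of the cap-binding complex changed relative to each other. Among the scaffolds, Eif4g2 (chr7:111067750-111083030 in GRCm38) encodes a relative of eIF4G that lacks the binding site for eIF4E and serves initiation that does not need it. Listed by replicate from 1 to 5, as all values below, Eif4g2 stood at 558, 604, 586, 578 and 524 CPM in the control libraries, 2213, 2324, 2495, 2308 and 2235 CPM with CL075 and 878, 875, 967, 849.8 and 855 CPM with poly(I:C). The 3 groups did not overlap, and CL075 held the highest values. Eif4g2 rose 4.06-fold with CL075 (log2 fold change 2.02, SE 0.06, adjusted p = 1.1e-15, n = 5 a group), the largest rise of the 59 members tested. With poly(I:C) it was 1.55-fold higher (log2 fold change 0.64, SE 0.06, adjusted p = 4.7e-09), a call that turned to -0.30 with library totals.

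The other scaffolds moved apart. Eif4g3, which encodes eIF4GII, was measured at 139, 137, 144, 139 and 141 CPM in the control libraries, 128, 129.6, 129.8, 119 and 130.2 CPM with CL075 and 279, 275, 283, 279 and 288 CPM with poly(I:C). The poly(I:C) libraries lay above all others, while the CL075 libraries lay below the control libraries by less than 1.5-fold. Eif4g3 rose 2.01-fold with poly(I:C) (SE of the log2 fold change 0.04, adjusted p = 8.3e-15), which became a log2 fold change of 0.07 with library totals and 0.46 with Hprt, and CL075 gave -0.14 (SE 0.04, adjusted p = 0.0026). Eif4g1, the main scaffold, ranged over 261 to 294 CPM in the control libraries, 375 to 443 CPM with CL075 and 252 to 264 CPM with poly(I:C). It rose with CL075 just past the threshold (log2 fold change 0.61, SE 0.05, adjusted p = 1.9e-09), missed it on the other 3 scales, and was not called with poly(I:C) (-0.08, SE 0.05).

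Of the cap-binding proteins themselves, Eif4e rose with both ligands. It stood at 58.5, 74.0, 64.0, 67.2 and 60.1 CPM in the control libraries, 129, 131, 134, 132 and 132 CPM with CL075 and 125, 136, 133, 122 and 127 CPM with poly(I:C). Every library given a ligand lay above every control library, and the CL075 and poly(I:C) libraries overlapped. Its log2 fold change was 1.03 with CL075 (SE 0.06, adjusted p = 6.9e-12) and 0.99 with poly(I:C) (SE 0.06, adjusted p = 4.7e-12), the latter 0.44 with Hprt and 0.05 with library totals. Eif4e3, a more distant member of the family that also binds the cap, was found at 17.7, 18.8, 20.6, 20.0 and 19.5 CPM in the control libraries, 18.5, 17.3, 17.4, 20.6 and 16.0 CPM with CL075 and 49.6, 54.7, 49.5, 46.8 and 43.3 CPM with poly(I:C). The control and CL075 libraries shared a range and the poly(I:C) libraries stood clear above it. Eif4e3 rose 2.52-fold with poly(I:C) (log2 change 1.34, SE 0.07, adjusted p = 1.3e-12), with 0.40 on library totals, and was not called with CL075 (-0.11, adjusted p = 0.18). In the annotation 14.8% of its exon bases overlap Gm20696 on the same strand, so some of its reads may belong to that gene. Eif4e2, the 4E homologous protein that binds the cap without eIF4G and represses its mRNAs, ranged over 72.2 to 79.2 CPM in control, 91.7 to 97.9 CPM with CL075 and 97.0 to 103 CPM with poly(I:C), within 1.5-fold of control (0.41 with poly(I:C) and 0.34 with CL075), and Eif4e1b, an oocyte form, had 0 reads in all 15 libraries.

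The helicase genes parted by ligand. Eif4a1, the more abundant of the initiation helicases, stood at 460.4, 534, 489, 495 and 455 CPM in the control libraries, 1006, 1063, 1077, 1091 and 1034 CPM with CL075 and 485, 516, 505, 482 and 506 CPM with poly(I:C). The CL075 libraries lay between 1006 and 1091 CPM, far over the control and poly(I:C) libraries, which overlapped. Eif4a1 rose 2.17-fold with CL075 (log2 fold change 1.12, SE 0.05, adjusted p = 6.5e-13) and was not called with poly(I:C) (0.04, adjusted p = 0.51). Its close paralogue Eif4a2, which has also been tied to microRNA silencing, stood at 160.3, 170.2, 172, 172 and 159 CPM in the control libraries, 169, 162, 172, 159 and 176 CPM with CL075 and 67.7, 71.8, 74.0, 63.8 and 71.2 CPM with poly(I:C). Here the control and CL075 libraries overlapped and every poly(I:C) library was lower. Eif4a2 fell 2.39-fold with poly(I:C) (log2 change -1.26, SE 0.05, adjusted p = 1.3e-14) and was not called with CL075 (0.01, adjusted p = 0.87). Some of the reads of Eif4a1 could be split with copies, as 25.4% of its 75-base windows recur in other genes, mainly in Eif4a-ps4.

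Eif4b, which encodes a protein that stimulates eIF4A, stood at 294, 277, 279.9, 285 and 287 CPM in the control libraries, 209.7, 203, 201, 192 and 213 CPM with CL075 and 112, 112, 107, 112 and 110.2 CPM with poly(I:C). The 3 groups were separate, in the order control, CL075, poly(I:C). Eif4b fell 2.57-fold with poly(I:C) (log2 change -1.36, SE 0.04, adjusted p = 2.4e-16). With CL075 it changed by less than 1.5-fold on the TMM scale (-0.48, SE 0.04, adjusted p = 1.8e-09) but was called lower on the other 3 scales. The difference between ligands was called (log2 fold change -0.88, SE 0.04, adjusted p = 1.9e-13). Eif4h, a relative with the same task, was within 1.5-fold of control in both (0.27 with poly(I:C) and 0.41 with CL075), and Eif4a3, the helicase of the exon junction complex, likewise (0.11 with poly(I:C) and 0.34 with CL075).

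**Figure D3:**
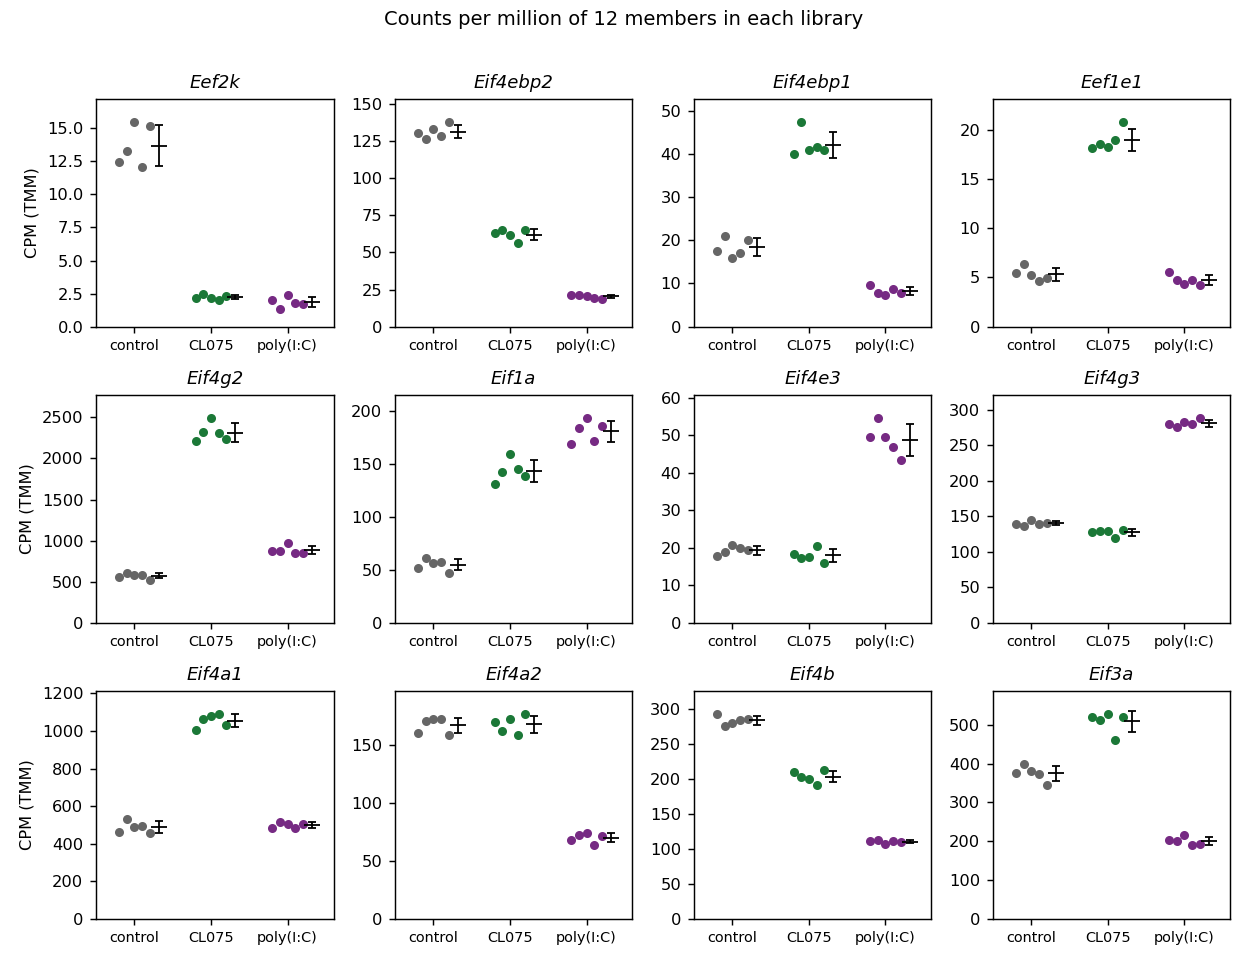
CPM (TMM) of 12 members in each of the 15 libraries, on linear axes that start at 0; points are libraries, the bar beside them is the mean ± SD (n = 5). Eef2k and Eif4ebp2 were lower with both ligands, Eif4ebp1 was higher with CL075 and lower with poly(I:C), and Eif4e3 and Eif4g3 were higher with poly(I:C).

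The inhibitors of eIF4E showed the sharpest contrast. Eif4ebp2 (chr10:61428491-61452661) stood at 131, 126, 133, 128 and 138 CPM in the control libraries, 63.0, 64.9, 61.5, 56.1 and 65.0 CPM with CL075 and 21.4, 21.4, 21.0, 19.4 and 18.9 CPM with poly(I:C). The groups were far apart, with control highest and poly(I:C) lowest. Eif4ebp2 fell 6.44-fold with poly(I:C) (log2 change -2.69, SE 0.05, adjusted p = 1.8e-18) and 2.12-fold with CL075 (log2 fold change -1.08, SE 0.05, adjusted p = 5.0e-13), and poly(I:C) was the lower of the ligands (log2 fold change -1.61, SE 0.05, adjusted p = 2.2e-15). Eif4ebp1, the paralogue most studied as a target of mTORC1 (chr8:27260329-27276674), stood at 17.6, 21.1, 16.0, 17.2 and 20.0 CPM in the control libraries, 39.9, 47.4, 40.8, 41.5 and 40.9 CPM with CL075 and 9.67, 7.83, 7.29, 8.62 and 7.70 CPM with poly(I:C). The groups were separate again, but CL075 was now highest and poly(I:C) lowest. Eif4ebp1 rose 2.29-fold with CL075 (log2 fold change 1.20, SE 0.08, adjusted p = 8.6e-11), fell 2.23-fold with poly(I:C) (log2 change -1.16, SE 0.09, adjusted p = 5.4e-10), and differed 5.12-fold between the ligands (log2 fold change -2.36, SE 0.09, adjusted p = 1.4e-14), the largest difference between ligands of the 59 members.

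Eif4ebp3 had 0 to 20 reads a library and was not tested, and 67.3% of its exon bases overlap another gene on the same strand. Eif4enif1, whose protein 4E-T carries eIF4E to the nucleus and to processing bodies, stood at 39.7 to 45.0 CPM in control, 41.5 to 46.6 CPM with CL075 and 64.6 to 68.4 CPM with poly(I:C). The poly(I:C) libraries lay above the rest, and the gene was called higher there (log2 fold change 0.69, SE 0.04, adjusted p = 3.6e-11), though with library totals the value turned to -0.25. It was not called with CL075 (0.10).

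Of the genes for eIF1A, which helps the ribosome scan for the start codon, Eif1a rose with both ligands and Eif1ax with CL075. Eif1a, on an autosome, stood at 52.0, 61.1, 56.3, 57.3 and 47.3 CPM in the control libraries, 131, 143, 159.5, 145 and 138 CPM with CL075 and 169, 183, 193, 172 and 185 CPM with poly(I:C). No library given a ligand overlapped with control, and poly(I:C) was highest. Eif1a rose 3.29-fold with poly(I:C) (log2 change 1.72, SE 0.07, adjusted p = 2.0e-14) and 2.62-fold with CL075 (log2 fold change 1.39, SE 0.07, adjusted p = 1.5e-12), on every scale. Eif1ax, its X-linked paralogue, was measured at 30.2, 33.2, 34.4, 31.8 and 29.8 CPM in the control libraries, 67.3, 67.7, 72.9, 70.8 and 72.5 CPM with CL075 and 35.1, 38.1, 39.8, 35.1 and 34.7 CPM with poly(I:C). CL075 stood apart at the top, and poly(I:C) lay slightly above control without overlap. Eif1ax rose 2.2-fold with CL075 (log2 fold change 1.14, SE 0.05, adjusted p = 5.6e-13) and stayed within 1.5-fold with poly(I:C) (0.20, SE 0.05, adjusted p = 0.0021).

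Eif1, which guards start codon choice, ranged over 206 to 264 CPM in control, 344 to 429 CPM with CL075 and 335 to 427 CPM with poly(I:C). Both ligands lay above control and overlapped each other. It was called higher with CL075 (log2 fold change 0.75, SE 0.08, adjusted p = 1.4e-07), a call lost with Hprt and with library totals. On the TMM scale it was called higher with poly(I:C) too (log2 fold change 0.70, SE 0.08, adjusted p = 2.2e-07), which turned to -0.24 with library totals. Its paralogue Eif1b, at 21.2 to 23.0 CPM in control, 23.6 to 26.3 CPM with CL075 and 17.2 to 20.4 CPM with poly(I:C), was within 1.5-fold of control (-0.27 with poly(I:C) and 0.17 with CL075). Eif5, the activator of GTP hydrolysis by eIF2, stood at 117, 129, 121, 133 and 122 CPM in the control libraries, 245, 240.4, 249.9, 242 and 251 CPM with CL075 and 100.3, 101, 107, 92.8 and 108 CPM with poly(I:C). CL075 was far above the rest and poly(I:C) was the lowest group. Eif5 rose 1.97-fold with CL075 (log2 fold change 0.98, SE 0.05, adjusted p = 1.2e-12) and differed 2.41-fold between the ligands (log2 fold change -1.27, SE 0.05, adjusted p = 1.5e-14), while poly(I:C) gave -0.29 against control, short of the threshold. Eif1ad, a nuclear protein with the eIF1A fold, was not called (-0.13 with poly(I:C) and 0.44 with CL075).

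The subunits of eIF2 differed in where they were called. Eif2s1, the alpha subunit that the stress kinases phosphorylate, stood at 76.6, 81.6, 84.5, 84.0 and 72.3 CPM in the control libraries, 157, 153, 166, 156 and 158 CPM with CL075 and 167, 161, 171, 156 and 168 CPM with poly(I:C). Both ligand groups lay well above control and overlapped each other. With poly(I:C) its log2 change was 1.04 (SE 0.05, adjusted p = 1.8e-13), which became 0.49 with Hprt and 0.11 with library totals, and with CL075 it was 0.98 (SE 0.05, adjusted p = 1.3e-12). Eif2s2, the beta subunit, was called higher with CL075 (log2 fold change 0.87, SE 0.07, adjusted p = 5.1e-09; 0.52 with library totals) and gave 0.33 with poly(I:C). Eif2s3x, the gamma subunit, ranged over 148 to 169 CPM in control, 193 to 213 CPM with CL075 and 137 to 154 CPM with poly(I:C) and was not called with either (0.38 with CL075 and -0.12 with poly(I:C)). Its Y-linked copy Eif2s3y had 1 read in total over the 15 libraries together. The study reports using mice of both sexes and does not say which gave these libraries.

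Of the 5 genes of eIF2B, Eif2b3, its gamma subunit, was called in opposite directions. It stood at 5.47, 6.66, 7.12, 6.35 and 6.32 CPM in the control libraries, 12.9, 13.3, 12.4, 11.9 and 14.7 CPM with CL075 and 3.70, 3.45, 4.44, 3.25 and 4.20 CPM with poly(I:C). The groups were separate, with CL075 highest and poly(I:C) lowest, at low counts of 63 to 515 reads a library. Eif2b3 rose 2.04-fold with CL075 (log2 fold change 1.03, SE 0.08, adjusted p = 2.1e-09) and fell 1.68-fold with poly(I:C) (log2 change -0.75, SE 0.10, adjusted p = 1.2e-06). Eif2b4 fell with poly(I:C) just past the threshold (log2 fold change -0.60, SE 0.07, adjusted p = 5.3e-07), which the fold missed at -0.57 without control replicate 5, and Eif2b1 was called lower between the ligands, with poly(I:C) below CL075 (log2 fold change -0.64, SE 0.06, adjusted p = 4.1e-08). Eif2b5, the catalytic subunit, ranged over 32.6 to 34.5 CPM in control, 40.1 to 47.1 CPM with CL075 and 31.4 to 36.5 CPM with poly(I:C), within 1.5-fold of control (0.05 with poly(I:C) and 0.40 with CL075), as was Eif2b2 (0.27 with poly(I:C) and 0.01 with CL075). Of the factors that can deliver initiator tRNA without eIF2, Eif2d fell with CL075 (log2 fold change -0.64, SE 0.07, adjusted p = 1.5e-07) and was not called with poly(I:C) (-0.17), and Eif2a, at 58.8 to 64.1 CPM in control, 55.9 to 59.2 CPM with CL075 and 48.6 to 53.8 CPM with poly(I:C), was not called with either (-0.25 with poly(I:C) and -0.10 with CL075).

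The 14 genes of eIF3 encode the large scaffold on the small ribosomal subunit. With poly(I:C) 2 fell and 12 were not called, where 30.5% of all genes tested fell. With CL075 4 rose and 10 were not called, where 17.6% of all genes rose, and between the ligands 7 were lower with poly(I:C) and 7 were not called, where 23.7% of all genes were lower. Eif3a, the largest subunit, stood at 376, 398, 382, 374 and 346 CPM in the control libraries, 519.9, 513, 528, 461 and 521 CPM with CL075 and 203, 199.8, 216, 189 and 193 CPM with poly(I:C). CL075 lay above control and poly(I:C) below it, with no overlap. Eif3a fell 1.87-fold with poly(I:C) (log2 change -0.90, SE 0.05, adjusted p = 7.8e-12), differed 2.54-fold between the ligands (log2 fold change -1.34, SE 0.05, adjusted p = 3.2e-14), and gave 0.44 with CL075, short of the threshold.

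Eif3j1 encodes a loosely bound subunit that promotes dissociation of the ribosome. It stood at 18.1, 21.2, 20.7, 21.2 and 20.5 CPM in the control libraries, 37.3, 38.5, 42.6, 38.9 and 39.4 CPM with CL075 and 9.27, 12.1, 12.1, 11.5 and 12.1 CPM with poly(I:C). CL075 was highest and poly(I:C) lowest, without overlap. Eif3j1 rose 1.93-fold with CL075 (log2 fold change 0.95, SE 0.06, adjusted p = 1.4e-10) and fell 1.78-fold with poly(I:C) (log2 change -0.83, SE 0.07, adjusted p = 2.1e-09). Eif3j2 is nearly the same in sequence, with 87.4% of its 75-base windows found in Eif3j1, so reads may have been split between them and the separate values are uncertain. It stood at 19.6, 21.4, 24.6, 25.2 and 19.7 CPM in the control libraries, 45.9, 46.5, 53.3, 45.0 and 51.2 CPM with CL075 and 16.5, 14.8, 22.5, 14.7 and 16.6 CPM with poly(I:C). CL075 was again far above the rest, while poly(I:C) and control overlapped. Eif3j2 rose with CL075 (log2 fold change 1.13, SE 0.10, adjusted p = 5.0e-09) and was not called with poly(I:C) (-0.38, adjusted p = 0.0026).

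Eif3b, which organizes the core of the complex, and Eif3d, which can bind the cap of some mRNAs, rose with CL075 on the TMM scale by 1.54-fold and 1.55-fold (0.63, adjusted p = 1.1e-10; 0.63, adjusted p = 4.3e-08) and missed the threshold on the other 3 scales. The counting of Eif3d may include an antisense gene, as 43.3% of its exon bases overlap Gm17638, which runs the opposite way, and whether reads were counted by strand is unstated in the methods. Eif3g and Eif3l were called in the direct comparison, with poly(I:C) below CL075 (log2 fold change -1.04, SE 0.07, adjusted p = 3.5e-11; log2 fold change -0.64, SE 0.04, adjusted p = 4.4e-11). The remaining subunits, Eif3c, Eif3e, Eif3f, Eif3h, Eif3i, Eif3k and Eif3m, lay between -0.43 and 0.31 in both comparisons with control. In control Eif3h was the most abundant of the 14 by TPM at 525 ± 6.84 (mean ± SD, n = 5), and Eif3j1 was the least abundant at 12.1 ± 0.701. The CPM of Eif3h ranged over 205 to 215 in control, 194 to 200 for CL075 and 214 to 230.1 for poly(I:C). Summed over the 14 genes, TPM was 2493 to 2562 in the control libraries, 2070 to 2275 for CL075 and 1297 to 1379 for poly(I:C), a scale on which all genes shift as described above.

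Of the genes for eIF5B, eIF6 and eIF5A, Eif6 rose with both ligands. Eif6, which keeps the large ribosomal subunit from joining too early, stood at 21.8, 23.1, 21.6, 22.9 and 24.2 CPM in the control libraries, 46.5, 49.6, 47.7, 51.8 and 48.4 CPM with CL075 and 43.2, 47.0, 40.2, 48.2 and 44.5 CPM with poly(I:C). Both ligands lay above control and overlapped each other. Eif6 rose 2.15-fold with CL075 (log2 fold change 1.10, SE 0.05, adjusted p = 1.2e-12) and 1.96-fold with poly(I:C) (log2 change 0.97, SE 0.05, adjusted p = 3.1e-12), the latter 0.43 with Hprt and 0.04 with library totals, both below the threshold. Eif5b, the GTPase that drives joining, ranged over 188 to 225 CPM in control, 252 to 269.5 CPM with CL075 and 285 to 335 CPM with poly(I:C). It came just short of the threshold with poly(I:C) (0.58, SE 0.05) and gave 0.33 with CL075. Eif5a, the hypusine-bearing factor that frees stalled ribosomes, ranged over 208 to 214 CPM in control, 281 to 308 CPM with CL075 and 259.5 to 289 CPM with poly(I:C), within 1.5-fold. Its minor paralogue Eif5a2 fell with poly(I:C) (log2 fold change -0.71, SE 0.09, adjusted p = 4.8e-07) and gave -0.42 with CL075.

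Eef1a1, the gene of the factor that carries aminoacyl-tRNA, was the most abundant member by TPM. It averaged 13680 ± 422 TPM in control (mean ± SD, n = 5), 10445 ± 317 TPM with CL075 and 7497 ± 188 TPM with poly(I:C). On the TMM scale the same gene stood at 8244 to 9029.7 CPM, 7963 to 8712 CPM and 8146 to 8973 CPM, overlapping ranges, and it was not called (-0.04 with CL075, -0.02 with poly(I:C)). Behind it in mean TPM in control came Eef2, Eif4a1, Eif3h, Eef1g, Eef1b2 and Eif1, whereas with CL075 Eif4a1 came next and Eef2, Eif4g2 and Eif1 followed. Eef1g ranged over 269 to 285 CPM in control, 285 to 309.9 CPM with CL075 and 251 to 276 CPM with poly(I:C). The exchange factor genes Eef1b2, Eef1d and Eef1g, which reload eEF1A with GTP, lay between -0.39 and 0.11 in both comparisons and were not called, and Eef1a2, the muscle and neuron form, had 1 to 10 reads a library. Reads of Eef1a1 and Eef1g could be shared with pseudogenes, which hold 26.6% and 38.0% of their 75-base windows.

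Eef1e1, also known as AIMP3 (chr13:38644207-38659058), sits in the complex of aminoacyl-tRNA synthetases. It stood at 5.50, 6.34, 5.23, 4.66 and 4.90 CPM in the control libraries, 18.1, 18.6, 18.3, 19.0 and 20.8 CPM with CL075 and 5.57, 4.71, 4.39, 4.71 and 4.20 CPM with poly(I:C). Control and poly(I:C) overlapped and CL075 was far above both. Eef1e1 rose 3.56-fold with CL075 (log2 fold change 1.83, SE 0.08, adjusted p = 3.9e-13), was not called with poly(I:C) (-0.18, adjusted p = 0.089), and differed 4.03-fold between the ligands (log2 fold change -2.01, SE 0.09, adjusted p = 1.6e-13).

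The kinase that inhibits eEF2 showed the largest fall of all members tested. Eef2k (chr7:120842831-120907450) stood at 12.5, 13.2, 15.5, 12.1 and 15.1 CPM in the control libraries, 2.17, 2.48, 2.15, 2.05 and 2.31 CPM with CL075 and 2.03, 1.37, 2.41, 1.79 and 1.73 CPM with poly(I:C). Every library given a ligand lay far below every control library, and the 2 ligands overlapped. Eef2k fell 7.35-fold with poly(I:C) (log2 change -2.88, SE 0.12, adjusted p = 2.7e-14) and 6.11-fold with CL075 (log2 fold change -2.61, SE 0.11, adjusted p = 1.1e-13), at 25 to 81 reads in the libraries given a ligand and 423 to 652 in control. The test between the ligands gave -0.27 (SE 0.14, adjusted p = 0.091). Its substrate Eef2, the translocase, ranged over 989 to 1283 CPM in control, 866 to 991 CPM with CL075 and 736 to 920.3 CPM with poly(I:C), and stayed within 1.5-fold on the TMM scale (-0.41 with poly(I:C) and -0.28 with CL075). On the other scales Eef2 was called lower with poly(I:C), at -0.74 with upper-quartile factors, -0.96 with Hprt and -1.35 with library totals, and with CL075 it was called lower with library totals (-0.63).

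Enzymes that methylate the elongation factors went in both directions. Eef1akmt4, a lysine methyltransferase of eEF1A, stood at 4.53, 3.85, 4.87, 4.69 and 3.76 CPM in the control libraries, 8.64, 8.50, 9.77, 10.6 and 9.85 CPM with CL075 and 14.1, 14.8, 14.9, 15.7 and 17.9 CPM with poly(I:C). The groups were separate, with poly(I:C) highest. Eef1akmt4 rose 3.58-fold with poly(I:C) (log2 change 1.84, SE 0.09, adjusted p = 6.6e-13) and 2.19-fold with CL075 (log2 fold change 1.13, SE 0.09, adjusted p = 2.2e-09), although 30.7% of its exon bases are shared with Gm49333 on the same strand. Eef2kmt, a methyltransferase of eEF2, ranged over 6.88 to 8.43 CPM in control, 4.59 to 5.28 CPM with CL075 and 2.74 to 4.00 CPM with poly(I:C), again without overlap. It fell 2.38-fold with poly(I:C) (log2 change -1.25, SE 0.09, adjusted p = 4.6e-10) and 1.55-fold with CL075 (log2 fold change -0.63, SE 0.09, adjusted p = 2.1e-06), while 23.0% of its exon bases face other genes on the opposite strand. Eef1akmt1, at 13.9 to 16.4 CPM in control, 10.7 to 12.6 CPM with CL075 and 11.2 to 13.3 CPM with poly(I:C), and Eef1akmt2 were not called (-0.33 and 0.28 with poly(I:C), -0.34 and 0.35 with CL075).

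Ratios of paralogues within a library do not depend on the scale, and they changed with the ligands. For 10 pairs the TPM of 1 gene was divided by that of its partner in each library, and the mean log2 ratio was compared between groups in 30 exact permutation tests, each two-sided, for which 5 against 5 libraries cannot give a p below 0.00794. At p-values adjusted by Benjamini-Hochberg over the 30 tests, 10 of 10 pairs differed from control with poly(I:C), 10 with CL075 and 7 between the ligands. A ratio shows unequal change and not which of the genes moved. The permutations took no account of the replicate numbers, and no test of the ratios paired by number was run.

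The scaffold ratio Eif4g3:Eif4g1 was 0.303, 0.286, 0.332, 0.327 and 0.325 in the control libraries, 0.185, 0.185, 0.189, 0.196 and 0.180 with CL075 and 0.655, 0.643, 0.668, 0.680 and 0.670 with poly(I:C). The 3 groups were separate and the ligands lay on opposite sides of control. The mean rose 2.11-fold with poly(I:C) (exact p = 0.00794, adjusted p = 0.0099, higher in 5 of 5 libraries than in any control library) and fell 1.68-fold with CL075 (exact p = 0.00794, adjusted p = 0.0099). The cap-binding ratio Eif4e3:Eif4e behaved alike in direction, at 0.712 ± 0.0672 in control (mean ± SD, n = 5), 0.324 ± 0.0314 with CL075 and 0.9 ± 0.0566 with poly(I:C), each with an exact p of 0.00794.

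The other pairs moved to the same side with both ligands. The helicase ratio Eif4a2:Eif4a1 fell from 0.2 ± 0.00793 in control to 0.0931 ± 0.00627 with CL075 and 0.0816 ± 0.00292 with poly(I:C), although it was Eif4a1 that was called with CL075 and Eif4a2 with poly(I:C). The inhibitor ratio Eif4ebp1:Eif4ebp2 stood at 0.389, 0.483, 0.348, 0.387 and 0.420 in the control libraries, 1.84, 2.11, 1.92, 2.15 and 1.82 with CL075 and 1.31, 1.06, 1.01, 1.28 and 1.18 with poly(I:C). Eif4ebp2 was thus the more abundant of the pair by TPM in every control library and Eif4ebp1 in every library given a ligand, and the shift gave an exact p of 0.00794 with each ligand. Eif4g2:Eif4g1 was 1.49 ± 0.084 in control, 3.98 ± 0.341 with CL075 and 2.44 ± 0.133 with poly(I:C). Eif1ax:Eif1a went from 0.325 ± 0.0202 to 0.274 ± 0.0155 with CL075 and 0.113 ± 0.00481 with poly(I:C), and Eif1b:Eif1, Eif4e2:Eif4e and Eif5a2:Eif5a were lower with both ligands, each with an exact p of 0.00794 against control. Eif3j1:Eif3j2 overlapped between control and CL075 (exact p = 0.0317, adjusted p = 0.035), and leaving out any of 6 single libraries took that p above 0.05.

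**Figure D4:**
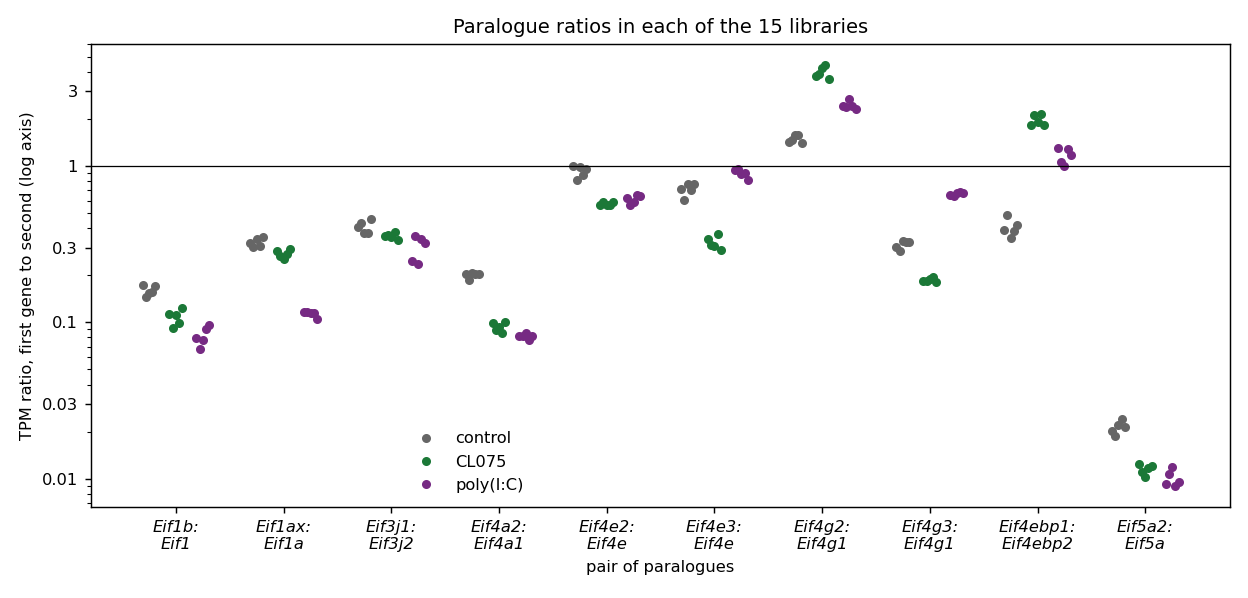
TPM of the first gene divided by that of the second for 10 pairs of paralogues, on a log axis, with a point for each of the 15 libraries (5 a group) and a line at 1. Eif4g3:Eif4g1 and Eif4e3:Eif4e lie above control with poly(I:C) and below it with CL075, and Eif4ebp1:Eif4ebp2 crosses 1 with both ligands.

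The regulators and partners of these factors were followed as a list of 47 genes, all of them tested. With poly(I:C) 9 rose and 17 fell (median log2 fold change -0.28 against -0.08 for all genes), with CL075 10 rose and 7 fell (0.11 against -0.02), and between the ligands poly(I:C) was the higher in 5 and the lower in 17 (-0.43 against -0.01). The share called was 55.3% with poly(I:C), where 55.9% of all genes tested were called, 36.2% with CL075 against 39.1%, and 46.8% between the ligands against 46.5%. By direction, poly(I:C) gave 19.1% higher and 36.2% lower against 25.4% and 30.5% of all genes, CL075 21.3% and 14.9% against 17.6% and 21.5%, and the direct comparison 10.6% and 36.2% against 22.7% and 23.7%. The 17, 7 and 17 lower calls were made on every scale, whereas 4 of 9, 6 of 10 and 3 of 5 higher calls were.

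The kinases of eIF2 alpha went different ways. Eif2ak2, which encodes PKR and is induced by interferon, stood at 148, 160.4, 181, 179.6 and 117 CPM in the control libraries, 287, 293, 319, 304 and 271 CPM with CL075 and 988, 1039, 1072, 903 and 922 CPM with poly(I:C). The groups were separate, in the order control, CL075, poly(I:C). Eif2ak2 rose 6.27-fold with poly(I:C) (log2 change 2.65, SE 0.10, adjusted p = 1.1e-14) and 1.88-fold with CL075 (log2 fold change 0.91, SE 0.09, adjusted p = 7.6e-08), the latter 0.56 with library totals, below the threshold. Eif2ak3, the kinase PERK of the endoplasmic reticulum, stood at 44.9, 48.8, 46.7, 46.2 and 43.2 CPM in the control libraries, 19.5, 20.5, 19.3, 16.5 and 19.5 CPM with CL075 and 5.07, 4.44, 5.81, 4.47 and 5.28 CPM with poly(I:C). The order was reversed, again without overlap. Eif2ak3 fell 9.17-fold with poly(I:C) (log2 change -3.20, SE 0.07, adjusted p = 1.4e-17) and 2.41-fold with CL075 (log2 fold change -1.27, SE 0.06, adjusted p = 1.6e-12). Eif2ak4, the amino acid sensor GCN2, fell with both (-1.38, adjusted p = 1.4e-12 for poly(I:C); -0.91, adjusted p = 5.2e-10 for CL075), and Eif2ak1, the heme-regulated kinase, was not called on the TMM scale (-0.38 for poly(I:C) and -0.36 for CL075). On the other scales Eif2ak1 was called lower with poly(I:C) (-0.71 with upper-quartile factors, -0.93 with Hprt and -1.32 with library totals), and with CL075 on the scales of Hprt (-0.64) and library totals (-0.71).

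Both genes that direct the phosphatase to eIF2 alpha rose. Ppp1r15b, the constitutive subunit CReP, ranged over 70.8 to 86.7 CPM in control, 207 to 265 CPM with CL075 and 663 to 805 CPM with poly(I:C), with a log2 fold change of 1.54 for CL075 (adjusted p = 5.6e-12) and 3.14 for poly(I:C) (adjusted p = 1.2e-16). Ppp1r15a, the inducible subunit GADD34, gave 1.76 for CL075 and 2.20 for poly(I:C). Atf4, the transcription factor translated when eIF2 alpha is phosphorylated, rose with CL075 (log2 fold change 1.55, SE 0.11, adjusted p = 3.8e-10) and was not called with poly(I:C) (0.34).

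Pdcd4 and the kinase gene Mknk2 fell with both ligands, and Larp1 rose. Pdcd4, an inhibitor of eIF4A, stood at 22.3, 18.1, 20.4, 21.6 and 22.4 CPM in the control libraries, 1.91, 1.85, 1.25, 1.72 and 1.71 CPM with CL075 and 1.37, 1.20, 1.32, 1.65 and 1.17 CPM with poly(I:C). Both ligands lay far below control and overlapped each other. Pdcd4 fell 15.6-fold with poly(I:C) (log2 change -3.96, SE 0.11, adjusted p = 1.2e-16) and 12.4-fold with CL075 (log2 fold change -3.64, SE 0.10, adjusted p = 4.4e-16). Mknk2, which phosphorylates eIF4E, fell with CL075 (log2 fold change -1.64, SE 0.07, adjusted p = 3.0e-13) and with poly(I:C) (-1.94). The mTORC1 inhibitors Ddit4 and Akt1s1 fell with poly(I:C) (log2 fold change -2.31, SE 0.20, adjusted p = 2.7e-09; log2 fold change -2.04, SE 0.13, adjusted p = 2.1e-11) and were not called with CL075 (-0.06 for Ddit4 and -0.07 for Akt1s1). Their differences between the ligands were called (edgeR, -2.24, adjusted p = 6.7e-09 for Ddit4, and -1.97, adjusted p = 5.6e-11 for Akt1s1). Reads were few in the poly(I:C) libraries, 9 to 20 for Ddit4 and 32 to 52 for Akt1s1. Of 10 genes listed for the mTORC1 branch, poly(I:C) gave 2 higher, 3 lower and 5 not called. Of all genes tested, 25.4% were called higher and 30.5% lower. Larp1, which binds oligopyrimidine mRNAs below mTORC1, ranged over 70.5 to 81.1 CPM in control, 224 to 249 CPM with CL075 and 524 to 539 CPM with poly(I:C) and rose with both (1.64, adjusted p = 2.0e-15 for CL075; 2.80, adjusted p = 7.4e-19 for poly(I:C)).

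Pabpc1, the main cytoplasmic poly(A) binding protein, ranged over 656 to 681 CPM in control, 825 to 873 CPM with CL075 and 1380.3 to 1606 CPM with poly(I:C). It rose with poly(I:C) on the TMM scale (log2 fold change 1.13, SE 0.05, adjusted p = 8.5e-14), which became 0.58 with Hprt and 0.19 with library totals, below the threshold, and gave 0.33 with CL075. Denr, which helps reinitiation with its partner Mcts1, rose with CL075 (log2 fold change 1.80, SE 0.07, adjusted p = 1.6e-13) and, on the TMM scale, with poly(I:C) (0.86, which turned to -0.08 with library totals), while Mcts1 was not called (0.03 with CL075 and 0.28 with poly(I:C)). Abce1, the ATPase that splits ribosomes after termination, differed between the ligands, with poly(I:C) the lower (log2 fold change -1.73, SE 0.07, adjusted p = 7.7e-14), falling with poly(I:C) (-0.82) and rising with CL075 on the TMM scale (0.90), which became 0.55 with library totals, below the threshold.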

How the data were processed

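The deposited tables hold 15 libraries. Per the study's methods and the file headers, the authors trimmed reads (Phred 20, length 25), mapped them to GRCm38.p6 in CLC Genomics Workbench, kept reads with up to 5 hits, and deposited whole-number counts per gene. The deposited TPM values were computed by the authors from the same reads and scaled to the same total in each library. The methods give neither a version nor a strand setting for the counting. Deposited columns of fold changes, p-values and called genes, and 20 RPKM columns, were not used.

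Counts of all 15 libraries were fitted with edgeR 4.0.16 in R 4.3.3 (filterByExpr, TMM, quasi-likelihood test, Benjamini-Hochberg over 11804 genes). Calls required more than 1.5-fold change, an adjusted p under 0.05 and a group mean of more than 0.5 TPM. The SE was taken as |log2 fold change| over the root of the F statistic. Paralogue ratios were tested with exact permutation in scipy 1.17.1. Libraries of 21816291 to 32487565 reads limit precision for members with few reads. The scripts were tested on simulated data.

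Alternatives were upper-quartile factors, library totals, Hprt as the scale, DESeq2 1.42.0, no filter, glmTreat, a fit of the 2 groups compared, a replicate block and each library left out. Same-numbered libraries deviated together at correlations of -0.104 to 0.457, over 0.1 in 14 of 15 pairs. Titles and column headers carry the same replicate numbers in each group, but the labels do not say what a number marks. Every pair of CL075 with control and of poly(I:C) with CL075 passed 0.1. Of poly(I:C) with control 4 of 5 did, the exception being replicate 4, and the block changed no member's call.

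Every member could be named. Full values were given for the 8 largest called changes in each comparison among members at a mean of 10 CPM or more, the 6 members highest in TPM, the leading members of each role, members called in opposite directions, and paralogues. From the regulators, the 3 highest in CPM, the 6 with the largest called changes in each comparison and the kinases of eIF2 alpha were named; others named were chosen after their values were seen. The members and lists were chosen with earlier results of these data known. Gene positions and overlaps came from GENCODE M21.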

Additional observations from a re-analysis of the deposited data

Results flagged for a closer look

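In 11 of 177 groups of 5 libraries (59 members in 3 groups), the highest or lowest library stood far from the other 4 by Dixon's criterion, which chance meets in about 1 group in 20. Values are CPM. With poly(I:C), replicate 3 was high for Eef1g (276, others 250.6 to 256.4), Eif3j2 (22.53, others 14.74 to 16.61) and Eif4g2 (967.1, others 849.8 to 878.1), and replicate 1 was low for Eif3j1 (9.27, others 11.49 to 12.12). With CL075, replicate 4 was low for Eif3a (461.1, others 513.2 to 528.3), Eif3b (140.9, others 151 to 153.9) and Eif4g3 (119.3, others 128 to 130.2), and replicate 2 was high for Eif4ebp1 (47.41, others 39.9 to 41.53). In control, replicate 2 was high for Eif2b5 (34.47, others 32.59 to 32.79) and Eif4a3 (42.41, others 38.18 to 39.31), and replicate 1 was low for Eif3j1 (18.14, others 20.49 to 21.24). None of these genes that were called lost a call when a single library was left out.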

How the results depend on the processing

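The scale mattered most. For poly(I:C) against control, members called higher numbered 2 with library totals and 3 with Hprt as the scale, against 10, and members called lower 46, 29 and 20 with library totals, Hprt and upper-quartile factors, against 11. For CL075 9 and 8 were called lower with library totals and Hprt and 2 with glmTreat, which tests for a change beyond the fold threshold, against 4. Between the ligands library totals gave 1 higher and 41 lower, against 3 and 20. Among the 47 regulators, poly(I:C) gave 4, 4 and 5 higher with library totals, Hprt and upper-quartile factors, against 9, and 36 and 29 lower with library totals and Hprt, against 17. CL075 gave 6 higher with library totals, against 10, and 13 and 12 lower with library totals and Hprt, against 7. Between the ligands library totals gave 3 higher and 36 lower and Hprt 27 lower, against 5 and 17. These scales differ from TMM by construction in where they set 0. With library totals the log2 fold change with poly(I:C) turned for Eif1 (-0.24), Eif4enif1 (-0.25), Eif4g2 (-0.30), Denr (-0.08), Etf1 (-0.07), Gspt1 (-0.12) and Rptor (-0.30).

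DESeq2, no filter, the fit of the groups compared alone and each library left out kept the member counts within 1.5 times. With the replicate block, which pairs libraries of 1 number, the members called were 10 and 11 with poly(I:C), 19 and 4 with CL075 and 3 and 20 between the ligands, as without it, and no member's call changed; 13 of 15 libraries deviated most like those of their own number. Leaving out a library gave 10 to 11 higher and 10 to 12 lower with poly(I:C), 19 and 4 with CL075, and 3 to 4 higher and 20 to 22 lower between the ligands. Single libraries took these below the fold threshold: Eif2b4 with poly(I:C) without control replicate 5 (-0.57), Eef2kmt between ligands without poly(I:C) replicate 2 (-0.58), Dhx29 between ligands without CL075 replicate 5 (-0.58), Mknk1 with CL075 without CL075 replicate 2 or 3 (-0.58), Rheb with CL075 without control replicate 1 (0.58) or 5 (0.55), and Rptor with poly(I:C) without poly(I:C) replicate 4 (0.57). Eif2b4 also missed it with DESeq2 (-0.54). With glmTreat these member calls were lost: Eif1, Eif2b4, Eif4g2 and Eif5a2 with poly(I:C), Eef2kmt, Eif2d, Eif3b, Eif3d and Eif4g1 with CL075, and Eef1akmt4, Eef2kmt, Eif2b1, Eif3d and Eif3l between the ligands. Among the regulators, Dohh and Rptor were lost with poly(I:C), Mknk1, Rheb and Rptor with CL075, and Dhx29 and Pelo between the ligands.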

Other observations

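Among the regulators are the enzymes that build diphthamide, the modified histidine of eEF2. On the TMM scale they were lower with poly(I:C) in 4 of 6 genes tested and called with CL075 in 0 of 6. Of all genes tested, 30.5% were called lower with poly(I:C) and 39.1% were called with CL075. This group was picked out after its values were seen. Dph5 stood at 7.74, 8.62, 8.15, 8.32 and 8.38 CPM in the control libraries, 9.70, 9.73, 9.51, 9.65 and 11.2 CPM with CL075 and 3.90, 4.11, 4.22, 3.96 and 4.32 CPM with poly(I:C). The poly(I:C) libraries lay below all others. Dph5 fell with poly(I:C) (log2 fold change -1.01, SE 0.07, adjusted p = 9.8e-11, edgeR) and Dph1, Dph2 and Dph7 fell too (-0.97, -0.96 and -1.11), while with CL075 these 4 gave 0.27, -0.09, 0.58 and -0.56. Between the ligands Dph1, Dph2, Dph5 and Dph6 were lower with poly(I:C) (-0.87, -1.54, -1.28 and -0.95), where 23.7% of all genes were. With CL075 5 of the 6 had an edgeR adjusted p under 0.05 on the TMM scale, at folds below 1.5. On the other 3 scales Dph7 was called lower with CL075 (-0.71 with upper-quartile factors, -0.84 with Hprt and -0.91 with library totals). Dph6 was called lower with poly(I:C) on all 3 of them.

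The genes of the release factor eRF3 parted. Gspt2 fell 3.49-fold with poly(I:C) and 2.59-fold with CL075 (log2 fold change -1.80, edgeR adjusted p = 2.1e-08 for poly(I:C); -1.37, adjusted p = 2.9e-07 for CL075). Gspt1 rose with CL075 (0.96, adjusted p = 1.7e-09) and, on the TMM scale, with poly(I:C) (0.82, which turned to -0.12 with library totals). Both genes were chosen here after their values were seen.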
